A study of Mus musculus with 3 samples.

Results

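Genes with several captured promoter fragments were taken from the list of viewpoints, the DpnII restriction fragments around which DNA contacts were measured in mouse erythroid cells. A viewpoint belonged here when its name ended in a single lower-case letter after a low dash, the same gene name occurred with at least 2 letters, and it did not lie on chromosome X. This gave 117 genes with 244 viewpoints of 7197 listed, of which 109 genes had 2 fragments, 7 had 3 and Nfe2 had 5. Together they formed 140 pairs of fragments of the same gene. A further 3 genes with 6 viewpoints on chromosome X were left out. The names, and not the measured contacts, chose the members.

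The contacts came from 3 NuTi Capture-C libraries (nuclear-titrated Capture-C, in which crosslinked DNA is cut with DpnII and ligated, intact nuclei are kept, and chosen fragments are then enriched with oligonucleotides) that formed 1 group, with no second condition. The cells were ter119-selected erythroid cells (CD71+ ter119+, red cell precursors) taken from the spleen, and the mice were an F1 hybrid (C57BL/6-cross-CBA/J). All mice had received phenylhydrazine, which destroys red cells and so fills the spleen with their precursors, at a labelled 40 mg per g body weight in each of 3 doses 12 h apart, and were killed on day 5. The table gives contacts and no transcript levels, so the labelled cell type could not be checked against marker genes. The libraries are called L1, L2 and L3 in the order of their unnamed columns, and held 18230099, 34428035 and 34233560 cis events (unique ligation events on the chromosome of the viewpoint). The counts of L2 and L3 differed by little more than sampling noise (chi-square per degree of freedom 1.03 over 6872 bins, p = 0.0259, against 2.10 and 2.14 with L1). Their mean therefore counted as 1 sample, and every SD below rests on 2 samples. The chi-square took 1 share of events for all viewpoints, so it also holds differences in capture between viewpoints. The values with L1 therefore do not show that its contact profiles differ. Nothing in the labels says that the libraries came from separate animals, so p-values measure the spread between these libraries, which may be technical.

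Many mammalian genes can start transcription at more than one promoter, and the choice can change the first exon, the tissue in which the gene is used or the protein made. Promoters rich in CpG dinucleotides are often active in many tissues, whereas promoters poor in CpG are more often restricted to particular tissues. In chromosome conformation capture, promoters that lie close together meet much the same surroundings, and promoters further apart can meet different enhancers and boundaries.

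Promoters of Runx1, Lmo2, Tfdp2 and Pik3r1 are shown first because their contacts are described in detail below and because the fragments of each differ in CpG content. Runx1 and Lmo2 encode transcription regulators needed to form blood cells, Tfdp2 encodes a partner of the E2F cell cycle factors, and Pik3r1 encodes regulatory subunits of phosphoinositide 3-kinase. Each line gives the 150 bases before an annotated transcription start in the fragment, 5′ to 3′ on the strand of the gene, from the mm9 genome (NCBIM37) with GENCODE vM1 starts. Capitals mark CG dinucleotides.
Runx1_a (chr16:92697574-92697723, minus strand): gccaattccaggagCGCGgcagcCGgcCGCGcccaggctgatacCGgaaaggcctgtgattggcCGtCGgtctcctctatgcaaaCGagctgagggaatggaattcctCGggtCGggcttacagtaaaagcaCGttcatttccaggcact
Runx1_b (chr16:92826312-92826461, minus strand): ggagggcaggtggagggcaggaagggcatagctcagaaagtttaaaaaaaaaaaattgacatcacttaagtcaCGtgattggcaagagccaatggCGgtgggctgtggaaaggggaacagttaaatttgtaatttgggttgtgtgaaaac
Lmo2_a (chr2:103797993-103798142, plus strand): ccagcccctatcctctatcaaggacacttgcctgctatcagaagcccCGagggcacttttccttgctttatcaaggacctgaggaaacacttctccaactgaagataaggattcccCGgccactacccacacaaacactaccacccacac
Lmo2_b (chr2:103809535-103809684, plus strand): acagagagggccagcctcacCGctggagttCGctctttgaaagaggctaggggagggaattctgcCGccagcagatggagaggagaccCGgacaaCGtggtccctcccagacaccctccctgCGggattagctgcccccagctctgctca
Tfdp2_a (chr9:96096544-96096693, plus strand): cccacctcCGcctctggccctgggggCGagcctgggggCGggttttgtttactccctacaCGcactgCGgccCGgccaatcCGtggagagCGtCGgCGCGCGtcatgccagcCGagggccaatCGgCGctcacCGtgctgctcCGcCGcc
Tfdp2_b (chr9:96159522-96159671, plus strand): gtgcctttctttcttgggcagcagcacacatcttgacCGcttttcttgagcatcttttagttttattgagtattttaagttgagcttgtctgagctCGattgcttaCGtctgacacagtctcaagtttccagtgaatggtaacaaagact
Pik3r1_a (chr13:102462603-102462752, minus strand): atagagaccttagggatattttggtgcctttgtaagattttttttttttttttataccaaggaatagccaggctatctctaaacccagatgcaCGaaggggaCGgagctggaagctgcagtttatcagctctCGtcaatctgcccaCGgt
Pik3r1_b (chr13:102538173-102538322, minus strand): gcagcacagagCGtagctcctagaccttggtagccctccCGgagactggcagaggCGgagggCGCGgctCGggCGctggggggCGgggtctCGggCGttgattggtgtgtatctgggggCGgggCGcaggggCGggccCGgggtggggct
The Runx1 windows held 12 CG dinucleotides in Runx1_a and 2 in Runx1_b. Those of Tfdp2 held 18 in Tfdp2_a and 3 in Tfdp2_b, those of Pik3r1 4 in Pik3r1_a and 14 in Pik3r1_b, and those of Lmo2 2 in Lmo2_a and 6 in Lmo2_b. Over all members, the median window held 9 CG dinucleotides, against 11 over all 6660 windows. At most 2 were found in 21 of 214 member windows (9.81%), against 4.07% of all windows. The letters AGATAA and also AGATAG, together with TGATAA and also TGATAG, on either strand, which GATA factors of red cells can bind, occurred 4 times in the Lmo2_a window and 2 times in that of Pik3r1_a. They occurred in 23 of the 214 member windows (10.7%) and in 8.62% of all windows.

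Most of the fragments held an annotated start of their own gene, but less often than the other viewpoints. Such a start lay in 214 of the 244 members (87.7%), against 95.8% of the 6731 other autosomal viewpoints, and 92 genes had one in at least 2 of their fragments. In 22 genes 1 fragment held such a start, and in 3 genes none did. Fragments are called promoters below also where they hold no such start, so a pair need not be 2 separate promoters. Add2_a lay 49286 bp from the nearest annotated start of Add2, 2010111I01Rik_b lay 31881 bp from one and Hnrnpf_c 9214 bp. The members were shorter (median 552 bp against 751 bp) and had a lower CpG ratio, the CG count over that given by the base composition (median 0.69 against 0.76). A ratio of at least 0.6 was found in 149 members (61.1%), against 79.0% of the other viewpoints. In 60 of the 140 pairs, 1 fragment was at or above 0.6 and the other below it, and this held for 10 of the 12 pairs over 50 kb apart and for 31 of the 87 pairs under 2.5 kb apart. These shares were not set against pairs of different genes, so they do not show a trait of these genes.

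The fragments of a gene lay close together in most cases. The median largest distance within a gene was 1357 bp. By distance between fragment midpoints, 87 pairs lay under 2.5 kb apart, 21 from 2.5 to 10 kb, 20 from 10 to 50 kb and 12 over 50 kb. The longest distances were 356 kb for Syne1, which encodes a large nuclear envelope protein, 276 kb for 2010111I01Rik, 226 kb for Mllt3, a transcription elongation factor of blood stem cells, 132 kb for Ssh2, a phosphatase of the actin cytoskeleton, and 128 kb for Runx1.

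The number of events differed widely between fragments of the same gene. Members held a median of 4879 events in the sum of the libraries, from 44 to 113350, and the other autosomal viewpoints a median of 6292. The deeper fragment of a pair had a median of 3.07 times the events of the other, and between neighbouring viewpoints of different genes this median was 2.18 to 2.48 over the ranges of distance. The ratio was at least 2 in 92 of the 140 pairs and at least 10 in 20, and the same fragment was deeper in all 3 libraries in 131 pairs. The longer fragment was the deeper in 91 pairs, and the part of fragment length in the ratio was not tested. These counts of pairs were not set against pairs of different genes, so they do not show a trait of these genes. The largest ratio was in Zzz3, a gene of a histone acetyltransferase complex, whose fragments lay 564 bp apart. Zzz3_a held 2688, 5623 and 5667 events in L1, L2 and L3, and Zzz3_b held 8, 21 and 15, so their ranges did not overlap. For Rab43, a small GTPase of membrane traffic, Rab43_c held 2118, 3047 and 3011 events and Rab43_b held 21, 35 and 49. Sphk1_b (454 events) and Epb41_b (551), of a sphingosine kinase and of the membrane skeleton protein 4.1, also stayed under 1000 events, as did 21 members in all. Profiles were compared only in the 116 pairs, of 101 genes, in which both fragments reached 1000 events.

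Depth also differed between the lists from which the probes were drawn, and the cause was not tested. The study also captured promoters it listed as inactive in these cells, and 7 members came from that list: Add2_a, Anapc15_a, Eva1c_a, Syne1_a, Tbc1d14_b, Ubtf_b and Znrf3_a. These held a median of 64075 events, from 32579 to 99044, and the other 237 members a median of 4704. The same held outside these genes, where 169 viewpoints of that list had a median of 70729 events and all others 6149. Tfdp2_a (113350 events) and Tfdp2_b (97662) lay in a deeply covered stretch of chromosome 9, from 50 to 100 Mb. These 9 fragments were among the 12 members above 20000 events. The precision of a profile therefore differs between fragments of the same gene, and it is highest for Tfdp2.

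**Figure D1:**
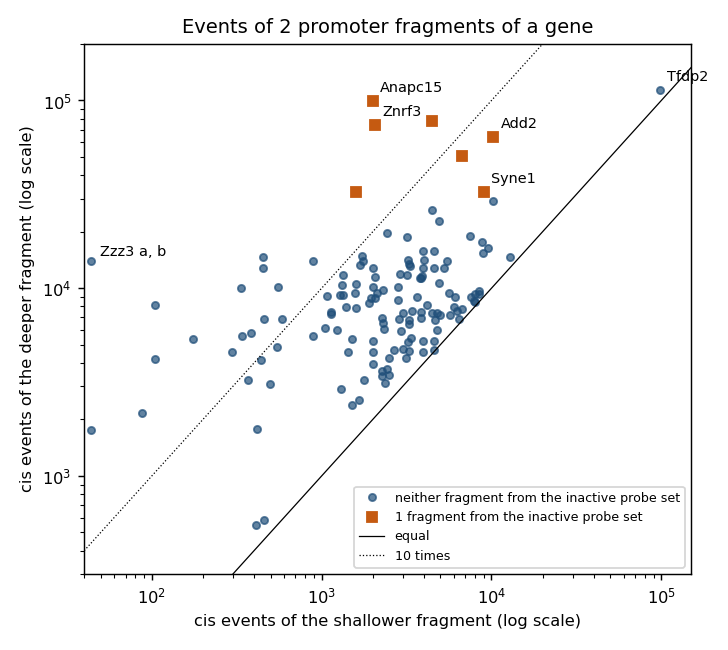
Events of the deeper fragment (vertical axis) against the shallower fragment (horizontal axis) in the sum of the 3 libraries, on log axes, for the 140 pairs of fragments of the same gene. Squares mark pairs with 1 fragment from the inactive probe list, the solid line is equality and the dotted line a ratio of 10. The squares lie above every circle except that of Tfdp2, and Zzz3 a and b stand far to the left.

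Contact profiles were compared as observed over expected events in bins of 10 kb, where the expected number came from the mean signal of all viewpoints at that distance. For 77 pairs with at least 20 bins, the profile of each promoter in one library was correlated with that of the other promoter in another library, and with its own profile in another library. Bins of a pair share a region and are not replicates, so these correlations are descriptions. The median correlation between promoters of the same gene was 0.57 in 46 pairs under 2.5 kb apart, where 34 pairs were at 0.5 or above, and 0.61 in 15 pairs from 2.5 to 10 kb. It was 0.49 in 10 pairs from 10 to 50 kb and 0.23 in 6 pairs over 50 kb. This order depended on depth and bin size. At 10 kb or more the median was 0.38 over all pairs scored, 0.64 with at least 5000 events for both fragments and 0.55 in bins of 20 kb, and under 10 kb it was 0.60, 0.58 and 0.62. The correlation of a promoter with itself between libraries had medians of 0.63, 0.65, 0.59 and 0.56 in the same order, which shows the noise between libraries. Neighbouring promoters of different genes gave 0.61, 0.63, 0.57 and 0.45, and 0.64, 0.67, 0.62 and 0.61 for a promoter with itself. In the ranges under 50 kb they had medians of 42, 45 and 46 bins, against 35, 37 and 34.5. The share of their pairs below both correlations of a promoter with itself was 31.9%, 33.1% and 39.9% there. It was 30.4%, 20% and 50% in pairs of the same gene. Pairs of different genes were taken only up to 200 kb, here and in every comparison below, whereas Syne1 (356 kb), 2010111I01Rik (276 kb) and Mllt3 (226 kb) lie beyond that, so the ranges over 50 kb are unlike. Under 50 kb, captured fragments of the same gene were by the median correlations no more alike than neighbouring viewpoints of different genes. This difference was not tested, and the part of the unlike numbers of bins in it was not tested either.

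The far pairs differed greatly among themselves. Pacsin2 (r = 0.76 over 57 bins), a membrane-bending protein gene, Elmsan1 (0.76 over 21), Pik3r1 (0.71 over 45), Tfdp2 (0.67 over 186) and Lmo2 (0.64 over 50) had profiles that followed each other. Osbpl9, a lipid-binding protein gene (0.20 over 44 bins), Mllt3 (0.19 over 22) and Syne1 (0.27 over 63) did so less. Add2 gave 0.12 over 86 bins, although its fragments gave 0.73 and 0.58 with themselves. Runx1 alone gave a negative value, -0.23 over 27 bins, with 0.65 for Runx1_a and 0.58 for Runx1_b with themselves. Of the 3 fragments of Tmcc2, a gene of an endoplasmic reticulum membrane protein, Tmcc2_b and Tmcc2_c lay 1.76 kb apart and gave 0.61, whereas Tmcc2_a, 21.9 kb from Tmcc2_b, gave 0.12 with it and 0.30 with Tmcc2_c. For Mllt3, Mllt3_b did not correlate with itself between libraries (0.00), so its low value says little about the pair. The correlation with itself was also low for Osbpl9_a (0.41), Osbpl9_b (0.31), Syne1_b (0.35) and Tmcc2_a (0.39).

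**Figure D2:**
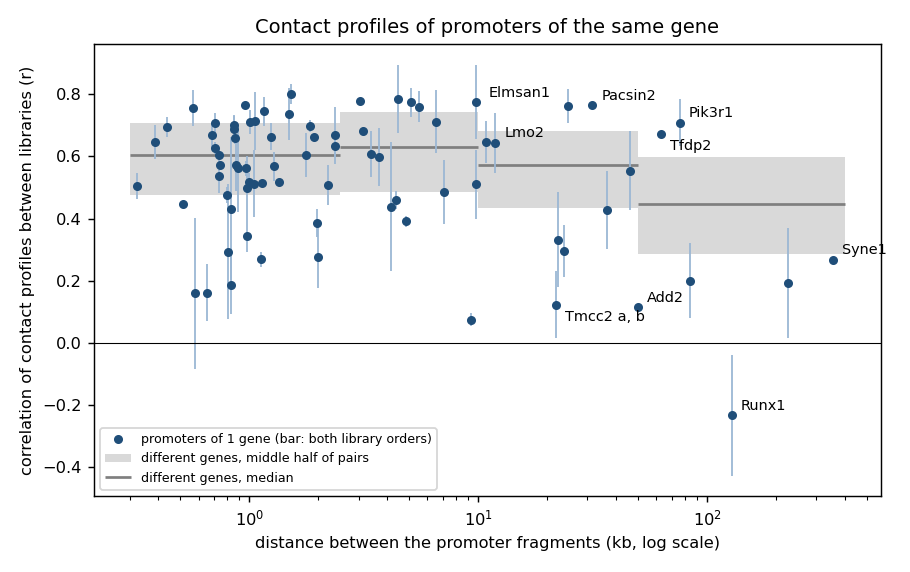
Correlation between the contact profiles of promoters of the same gene, taken between different libraries (vertical axis), against the distance between them in kb on a log axis, for 77 pairs. Points are means over both orders of the libraries and bars join the orders, grey bands are the interquartile range and grey lines the median for neighbouring promoters of different genes, and Runx1 is the only point below 0.

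Single bins were then tested with limma on the within-library difference between the promoters of a pair, in 1 fit that also held neighbouring viewpoints of different genes. Of 180867 bins, 471 had an adjusted p under 0.05 (0.26%). In pairs of the same gene 11 of 3710 bins were called, 10 in Tfdp2 and 1 in Add2, and 408 had an unadjusted p under 0.05. No bin was called among 2054 in pairs under 2.5 kb apart or among 711 in pairs from 2.5 to 10 kb (limma), where 7.11% and 9.99% had an unadjusted p under 0.05. That share was 17.5% from 10 to 50 kb and 23.4% over 50 kb, and in pairs of different genes it was 7.58%, 6.96%, 9.36% and 15.8% over the same ranges. No Tfdp2 bin was called with a pseudocount of 20, in bins of 5 kb, without the filter on expected events or with a quasi-binomial test on events, and 1 was called without the replicate block. In bins of 20 kb 1 bin was called in Tal1, whose fragments lie 1.64 kb apart, beside 11 in Tfdp2 and 1 in Add2. The bins called in Tfdp2 fell from 10 to 9, 2 and 1 without L1, L2 and L3, and the Add2 bin was lost on leaving out any 1 of them.

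Tfdp2 held the most called bins, with 186 bins tested, against 27 in Runx1 and 45 in Pik3r1. The part of depth in this was not tested. Tfdp2_a (chr9:96095894-96097173) is the upstream fragment and Tfdp2_b (chr9:96158579-96160547) lies 63.0 kb further along the plus strand. In the bin with the smallest p, 78.5 kb from Tfdp2_a and 15.4 kb beyond Tfdp2_b, observed over expected was 1.78, 1.75 and 1.67 for Tfdp2_a in L1, L2 and L3 and 0.849, 0.757 and 0.758 for Tfdp2_b. All 3 libraries of Tfdp2_a lay above all 3 of Tfdp2_b, with a log2 difference of 1.05 (SE 0.09, limma adjusted p = 0.00938). Relative contacts of Tfdp2_a were higher in the 8 called bins beyond Tfdp2_b and lower in the 2 called bins between the promoters. Counted as events, that bin held 253, 343 and 320 for Tfdp2_a and 228, 519 and 537 for Tfdp2_b, which is nearer to it. The total events were 28576, 42838 and 41936 for Tfdp2_a and 14091, 41209 and 42362 for Tfdp2_b.

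In Add2, which encodes beta adducin of the red cell membrane skeleton, the called bin lay 186 kb from Add2_a. Observed over expected was 1.20, 1.01 and 0.956 for Add2_a and 0.260, 0.242 and 0.241 for Add2_b, without overlap (log2 difference 1.72, SE 0.23, limma adjusted p = 0.0460). The values for Add2_b rest on 3, 4 and 4 events.

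**Figure D3:**
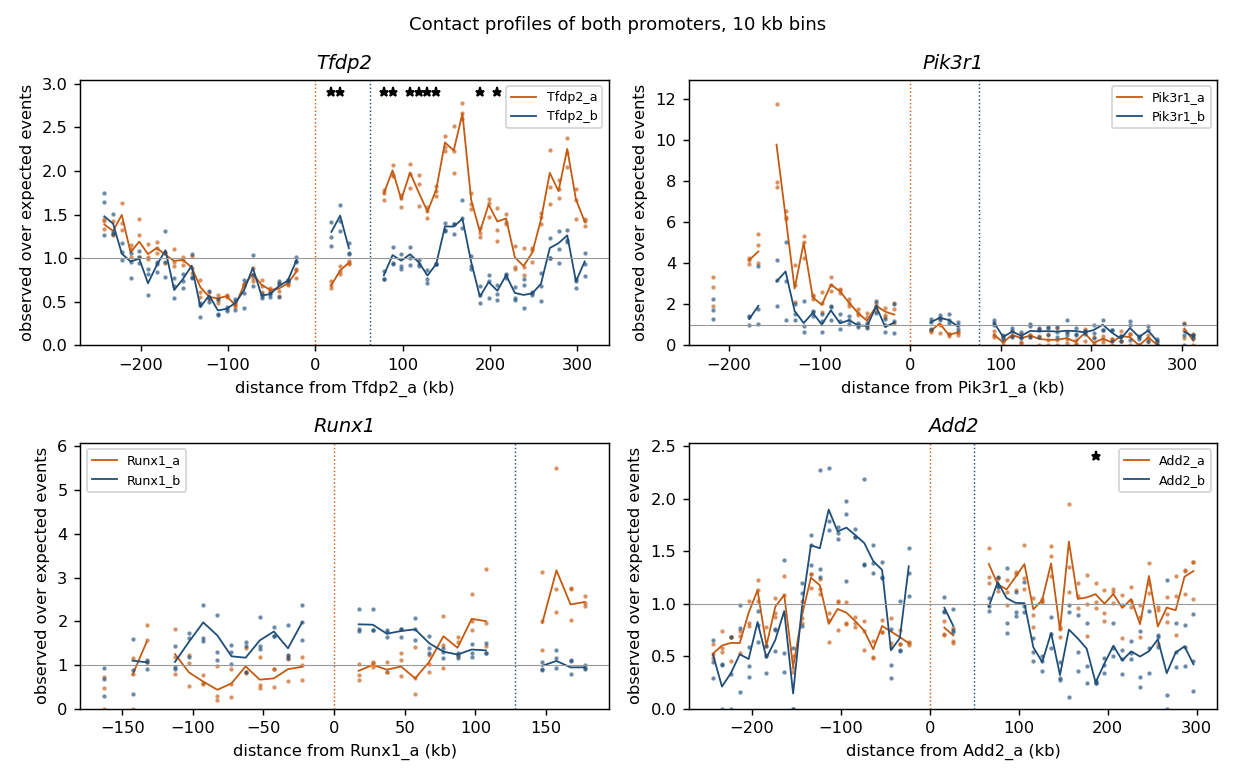
Observed over expected events in 10 kb bins (vertical axis) against distance from the first promoter in kb (horizontal axis) for Tfdp2, Pik3r1, Runx1 and Add2. Dots are libraries, lines the mean of L1 and the mean of L2 and L3, dotted vertical lines the promoters and stars the called bins. Tfdp2_a runs above Tfdp2_b beyond the second promoter, Pik3r1_a peaks on the lower-coordinate side, and the Runx1 curves cross between the promoters.

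Because few bins held enough events for shallow fragments, bins were also summed into zones with the same weights for both promoters: up to 200 kb on the lower-coordinate side, between the promoters, and up to 200 kb on the higher-coordinate side. Across all pairs, limma gave an adjusted p under 0.05 in 3455 of 11039 zones (31.3%). In pairs of the same gene 49 of 247 zones were called, in 37 pairs of 32 genes. By distance the called zones were 8 of 134 under 2.5 kb (5.97%, against 17.3% between different genes), 10 of 38 from 2.5 to 10 kb (26.3% against 16.2%), 13 of 39 from 10 to 50 kb (33.3% against 25.2%) and 18 of 36 over 50 kb (50% against 38%). Same-gene shares were thus below the background under 2.5 kb and above it beyond, and the difference between the kinds of pair was not tested. From 2.5 to 10 kb, the calls of Nfe2_a, Nfe2_b and Nfe2_c were all against the same fragment, Nfe2_e. In that range both calls of Eva1c, and those of Gpr146, of Hnrnpf_b with Hnrnpf_c and of Sphk1, were lost on leaving out a library. Under 2.5 kb the median absolute log2 difference was similar, at 0.116 in pairs of the same gene and 0.124 between different genes. The deeper fragment there had a median of 2.40 times the events of the other, against 1.79. The part of depth in the called shares was not tested. Of the 49 zones, 39 stayed called without any 1 of the 3 libraries. The fit without L1 took L2 and L3 as 2 samples, so a call kept there says little about the spread between samples.

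Among blood transcription factors, 8 of 30 zones were called, in Runx1, Lmo2, Mllt3 and Nfe2, and none in Tal1. Over all pairs 31.3% of zones were called. Between different genes it was 17.3% under 2.5 kb and 16.2% from 2.5 to 10 kb, the distances of Nfe2 and Tal1, and 25.2% from 10 to 50 kb and 38% beyond, the distances of Lmo2 and of Runx1 and Mllt3. Runx1 differed in all 3 zones. Runx1_a (chr16:92697424-92697869) and Runx1_b (chr16:92825340-92826610) lie on a gene of the minus strand, so Runx1_b is the upstream, distal promoter. On the higher-coordinate side, upstream of the gene, observed over expected was 2.61, 2.70 and 3.41 for Runx1_a and 1.12, 1.11 and 1.07 for Runx1_b. The 3 libraries of Runx1_a were all higher (log2 difference 1.35, SE 0.11, limma adjusted p = 2.41e-07). Between the promoters the order turned, with 1.11, 1.12 and 1.33 for Runx1_a and 1.65, 1.73 and 1.55 for Runx1_b (log2 difference -0.49, SE 0.10, limma adjusted p = 0.00164). On the lower-coordinate side Runx1_a was at 0.662, 0.889 and 0.945 and Runx1_b at 1.37, 1.38 and 1.32 (log2 difference -0.80, SE 0.13, limma adjusted p = 0.000295). The Runx1 profiles were thus set apart in opposite directions on the 2 sides, without overlap between the libraries in any zone.

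Lmo2, Nfe2 and Mllt3 held the other called zones of this group. Lmo2_a (chr2:103797392-103798432) and Lmo2_b (chr2:103809278-103810265) lie 11.9 kb apart. Lmo2_a was at 2.13, 2.03 and 2.05 on the lower-coordinate side and Lmo2_b at 2.48, 2.55 and 2.53, each above its expectation (log2 difference -0.27, SE 0.07, limma adjusted p = 0.0122). This call was lost when each viewpoint was scaled to its own total in range (-0.13). In Nfe2, the erythroid subunit of the NF-E2 factor, the 5 fragments span 6.55 kb and their pairs share fragments. Nfe2_a, Nfe2_b and Nfe2_c each had higher values than Nfe2_e on the higher-coordinate side, with log2 differences of 0.47, 0.46 and 0.33 (limma adjusted p = 0.00565, 0.00103 and 0.00841). Nfe2_e was at 0.857, 0.937 and 0.898 there and Nfe2_a at 1.14, 1.30 and 1.35. The profiles of all Nfe2 pairs still correlated at 0.61 to 0.77. Mllt3_a was below Mllt3_b on the lower-coordinate side (log2 difference -0.57, SE 0.18, limma adjusted p = 0.0250), and this call was also lost by scaling to the total in range (-0.39).

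Among genes of red cell heme, iron and membrane, 3 of 7 zones were called, 2 of them in Add2, against 31.3% over all pairs. Between different genes the share was 25.2% from 10 to 50 kb, the range of Add2. It was 17.3% under 2.5 kb, the range of Tfr2 and Alad. Add2_a was at 0.856, 0.762 and 0.768 on the lower-coordinate side against 1.22, 1.13 and 1.22 for Add2_b, without overlap (log2 difference -0.56, SE 0.08, limma adjusted p = 4.71e-05). On the other side the order turned, with 1.21, 1.08 and 1.07 for Add2_a and 0.845, 0.711 and 0.711 for Add2_b (log2 difference 0.56, SE 0.07, limma adjusted p = 1.19e-05). Add2_a came from the inactive probe list and holds no annotated Add2 start. In Tfr2, the second transferrin receptor, Tfr2_a was above Tfr2_b on the lower-coordinate side (log2 difference 0.40, SE 0.12, limma adjusted p = 0.0161), and without L1 the difference was 0.22 and no longer called. In Alad, an enzyme gene of heme synthesis, no zone was called, and Epb41_b was too shallow for a test.

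In the cell cycle and DNA replication group 4 of 11 zones were called (31.3% over all pairs), 2 in Tfdp2 and 2 in Anapc15. Between different genes the share was 38% over 50 kb, the range of Tfdp2, and 25.2% from 10 to 50 kb, that of Anapc15. In Anapc15 the log2 differences were 0.75 on the lower-coordinate side and -0.60 on the other (limma adjusted p = 0.00846 and 0.00245). The lower-coordinate value of Anapc15_b rests on 11, 33 and 26 events, and Anapc15_a came from the inactive probe list. Over the 200 kb beyond Tfdp2_b, Tfdp2_a was at 1.71, 1.64 and 1.69 and Tfdp2_b at 0.931, 0.839 and 0.872 (log2 difference 0.92, SE 0.035, limma adjusted p = 3.34e-11). Between the promoters Tfdp2_a was lower, at 0.831, 0.872 and 0.808 against 1.38, 1.22 and 1.16 (log2 difference -0.62, SE 0.06, limma adjusted p = 1.03e-06), and on the lower-coordinate side no difference was called. Pik3r1, which was in none of the groups, lies on the minus strand, with Pik3r1_b (chr13:102538011-102538812) 75.9 kb upstream of Pik3r1_a (chr13:102462144-102462796). On the lower-coordinate side, in the direction of transcription, Pik3r1_a was at 3.13, 3.11 and 3.08 and Pik3r1_b at 1.59, 1.43 and 1.93 (log2 difference 0.93, SE 0.08, limma adjusted p = 3.81e-07). On the higher-coordinate side Pik3r1_a was lower, at 0.299, 0.419 and 0.300 against 0.659, 0.723 and 0.593 (log2 difference -1.0, SE 0.15, limma adjusted p = 9.58e-05). Between the promoters Pik3r1_a was also lower, at 0.757, 0.738 and 0.602 against 1.12, 1.32 and 1.07 (log2 difference -0.69, SE 0.16, limma adjusted p = 0.00327). In the side zones the nearer promoter had the higher value on each side, the reverse of Runx1 on both sides and of Tfdp2 on the higher-coordinate side.

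Across the 30 pairs at least 10 kb apart, a side zone was more often called with the more distant promoter higher. Of 60 side zones 26 were called (43.3%, against 35.4% between different genes), and in 21 of these the promoter farther from the zone had the higher observed over expected, as in Tmcc2, Elmsan1, Clcn3 and Specc1. Between different genes the farther promoter was the higher in 1939 of 2614 called side zones, so it was the more frequent direction there too. The exceptions were both side zones of Pik3r1, both of Anapc15 and 1 of Znrf3. Anapc15_a and Znrf3_a came from the inactive probe list, as did Add2_a, whose side zones were both called with the farther promoter higher. The 21 zones were 35.0% of those tested, and the same share between different genes was 26.3%. With each viewpoint scaled to its total in range it was 29 of 33 called zones. Elmsan1_a was at 1.04, 0.968 and 0.963 on the lower-coordinate side and Elmsan1_b at 1.92, 1.85 and 1.88 (log2 difference -0.91, SE 0.11, limma adjusted p = 1.19e-05). Tmcc2_a was at 0.960, 0.615 and 0.683 and Tmcc2_c at 1.72, 1.52 and 1.64 (log2 difference -1.06, SE 0.12, limma adjusted p = 7.61e-06). The fragments 356 kb apart in Syne1 had no called zone, with log2 differences of 0.02, -0.08 and 0.07 (SE 0.18, 0.08 and 0.10), and their weak correlation stood beside 0.66 for Syne1_a and 0.35 for Syne1_b with themselves.

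**Figure D4:**
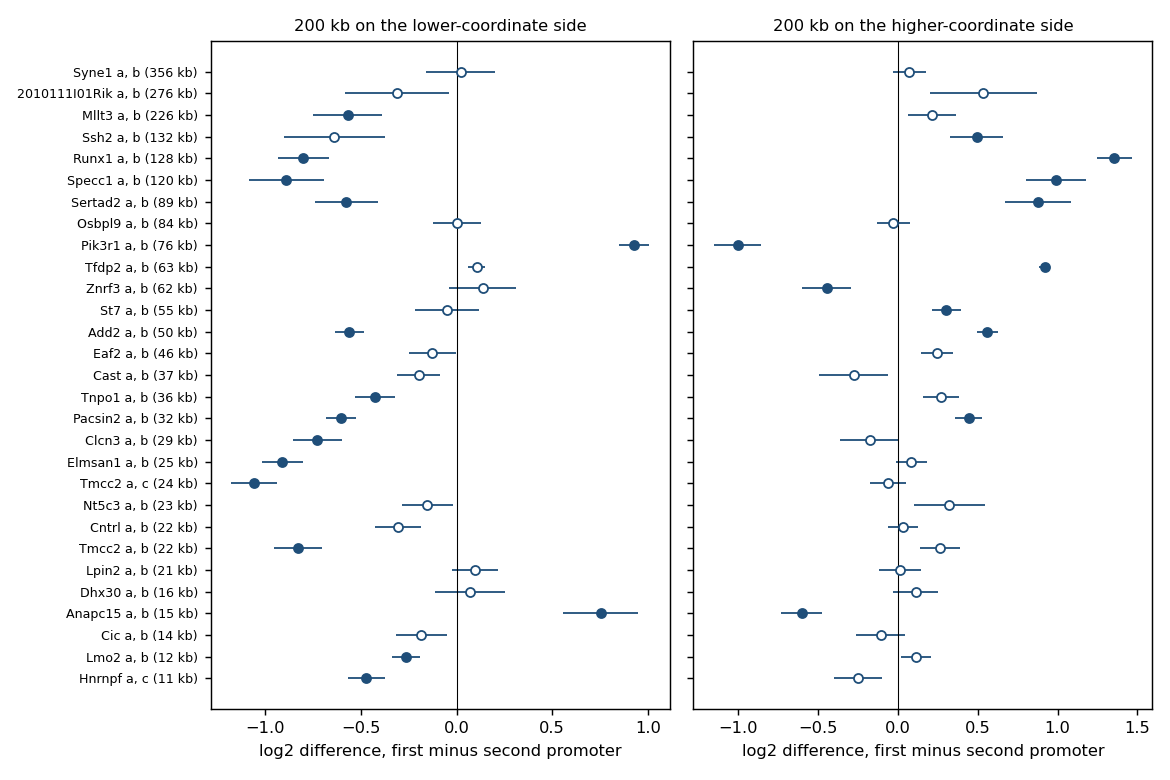
Log2 difference of observed over expected between the first and the second promoter (horizontal axis) on the lower-coordinate side (left) and the higher-coordinate side (right), for 29 of the 30 pairs at least 10 kb apart in order of distance. Bars are SE and filled points have a limma adjusted p under 0.05. Negative values on the left and positive values on the right mean that the more distant promoter was higher, and Pik3r1 and Anapc15 have the opposite signs on both sides.

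The balance between the sides of a promoter also differed more between distant promoters. The share of events from 10 kb to 1 Mb that lay on the higher-coordinate side differed between promoters of the same gene by a median of 2.62 ± 0.42 percentage points (SD, n = 2) under 2.5 kb, 5.74 ± 1.91 from 2.5 to 10 kb, 8.20 ± 0.82 from 10 to 50 kb and 7.77 ± 1.97 over 50 kb. Neighbouring promoters of different genes differed by 2.84, 3.15, 5.00 and 7.30. The largest difference was in Clcn3, a chloride channel gene, where Clcn3_a had 61.3%, 60.1% and 56.9% on that side and Clcn3_b 32.1%, 33.3% and 31.3%, which is 27.7 ± 2.1 percentage points. Specc1 (25.3 ± 1.4) and Tmcc2_a against Tmcc2_b (25.1 ± 3.5) followed. Runx1_a had 73.5%, 73.5% and 73.3% on that side (73.4% in the sum, exact 95% interval 71.4 to 75.4) and Runx1_b 53.2%, 53.5% and 54.4% (53.8%, 52.6 to 54.9). Pik3r1 differed by -11.9 ± 0.3 and Tfdp2 by 13.0 ± 0.6. The intervals cover counting error only.

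Contacts between the promoters themselves could be read only beside them, since captured fragments carry no contacts in the table. Events were counted at fragments 1 to 2 places from the partner promoter and set against the distance expectation. Summed over pairs, the ratio was 0.672 ± 0.027 (SD, n = 2) for 19 pairs from 2.5 to 10 kb apart, 1.13 ± 0.02 for 18 pairs from 10 to 50 kb and 1.11 ± 0.12 for 12 pairs over 50 kb. Pairs of different genes gave 0.835, 1.24 and 1.65, so the sums for promoters of the same gene lay below those in both ranges under 50 kb, and the range over 50 kb holds the 3 pairs of the same gene beyond 200 kb. With each pair weighted equally the medians were 1.06, 1.81 and 1.01 against 0.958, 1.22 and 1.41, so the order turned in the ranges from 2.5 to 10 kb and from 10 to 50 kb. Pairs with a fragment from the inactive probe list weighed heavily in the sums. From 2.5 to 10 kb, Eva1c (281 observed, 721 expected) and Tbc1d14 (173, 487) stood within 2477 expected events. From 10 to 50 kb, Anapc15 (162, 369) and Add2 (49, 107) stood within 955. Of 16 pairs at least 10 kb apart with at least 20 expected events, 10 were above 1 (median 1.63, range 0.439 to 4.06).

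Tmcc2 had the highest ratio among these. From Tmcc2_a, 40 events beside Tmcc2_b were observed against 8.92 expected (ratio 4.48, 95% Poisson interval 3.20 to 6.10), and the libraries gave 4.57, 5.08 and 3.83. In the other direction the ratio was 3.76 (2.76 to 5.00). Eaf2, an elongation factor partner, gave 2.02 and 2.54 in the 2 directions, and Elmsan1 gave 1.51 and 2.81. Lmo2, with 2.01 (1.49 to 2.66) from Lmo2_a and 1.56 (1.15 to 2.07) from Lmo2_b, was above its expectation in all 3 libraries in both directions. Runx1 had fewer than 20 expected events in all, with 11 observed against 2.09 from Runx1_a (5.26, interval 2.62 to 9.41) and 27 against 9.04 from Runx1_b (2.99, interval 1.97 to 4.35). Both directions lay above the distance expectation in every library of Runx1, on these few events at fragments beside the promoters, and contact of the promoter fragments themselves was not measured. In Pacsin2 the directions disagreed, with 0.433 (0.159 to 0.942) from Pacsin2_a and 2.71 (1.96 to 3.65) from Pacsin2_b.

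Among the 16 pairs at least 10 kb apart with at least 20 expected events, the 3 lowest were Anapc15, a subunit gene of the anaphase-promoting complex (0.439 from Anapc15_a), Add2 (0.533 from Add2_a) and Znrf3, a ubiquitin ligase of the Wnt pathway (0.588 from Znrf3_a). From Anapc15_b 3 events were seen where 6.99 were expected (0.429, interval 0.0885 to 1.25), which does not show a difference from 1. From Add2_b no event was seen where 14.7 were expected, which allows a ratio of up to 0.251. From Znrf3_b none was seen where 2.46 were expected, which is too few to show a difference. In each of these pairs 1 fragment came from the inactive probe list and held most of the events, and the part of that design in the low ratios was not tested.

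**Figure D5:**
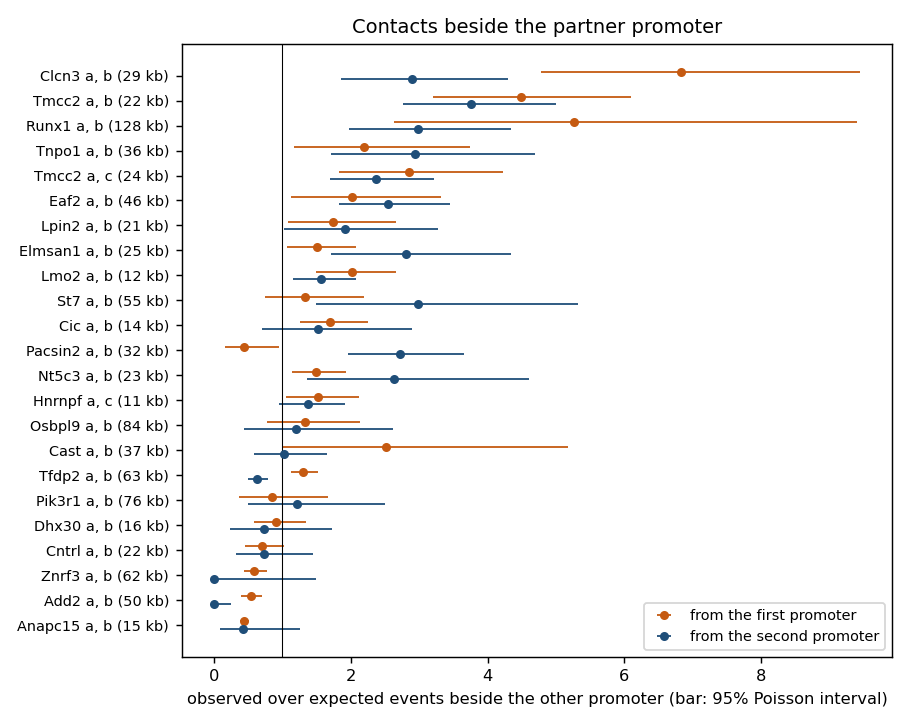
Observed over expected events at fragments 1 to 2 places from the partner promoter (horizontal axis), from the first promoter and from the second, with 95% Poisson intervals of the summed libraries, for 23 pairs at least 10 kb apart with at least 10 expected events (1 further such pair is not shown). Tmcc2, Clcn3 and Runx1 lie right of 1 in both directions, and Anapc15 lies left of 1 with Add2 and Znrf3.

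Of all zones 31.3% were called. Between different genes the share was 17.3% under 2.5 kb, 16.2% from 2.5 to 10 kb and 25.2% from 10 to 50 kb. Pairs of the same gene under 2.5 kb apart had 5.97%. The next 3 groups hold few zones, and a difference from these shares was not tested. Their called zones in Hnrnpf and Clcn3 belong to pairs 9.8, 10.8 and 28.7 kb apart. Groups of ubiquitin ligases and of nuclear import, with 2 of 5 and 1 of 4 zones called, hold fewer still. In the RNA binding and ribosome group the median correlation was 0.71 over 7 pairs, from 0.50 to 0.78. Between different genes the medians were 0.61, 0.63 and 0.57 in the ranges under 50 kb. The Hnrnpf pairs among the 7 share fragments, and this difference was not tested. In this group 2 of 18 zones were called, both in Hnrnpf, a splicing regulator. Hnrnpf_a and Hnrnpf_b each had lower values than Hnrnpf_c on the lower-coordinate side (log2 differences -0.47 and -0.47, limma adjusted p = 0.00152 and 0.00947), and without L1 the second was -0.20 and not called. In the apoptosis group 1 of 10 zones was called, in Bcl2l1, the gene of the survival protein Bcl-xL (log2 difference 0.26, limma adjusted p = 0.0486), and without L2 it was 0.24 and not called. Membrane transport genes had 1 of 10 zones called, the lower-coordinate side of Clcn3, where Clcn3_a was at 1.23, 1.41 and 1.49 and Clcn3_b at 2.27, 2.21 and 2.13 (log2 difference -0.73, SE 0.13, limma adjusted p = 0.000509). In Myo1c, a motor protein gene with 3 fragments, the correlations were 0.39 to 0.60 and Myo1c_a was above Myo1c_c on the lower-coordinate side (0.32, limma adjusted p = 0.00664). In Sphk1, Sphk1_a and Sphk1_c correlated at 0.78 over 112 bins, with a called log2 difference of 0.18 that was lost without L2 (0.14). In Osbpl9, the zone between the promoters was called at 0.54 (limma adjusted p = 0.0336), and it was not called without L1 (0.10) or without L2 (0.44).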

How the data were processed

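Contacts of DpnII promoter fragments were measured in 3 libraries of 1 group. According to the methods and the submitters' processing notes, the authors trimmed reads with Trim Galore, aligned them to mm9 with Bowtie (versions not given in the sources used here), removed PCR duplicates and counted unique ligation events with the CCseqBasic programs. The deposited signal values are these events per 100000 cis events of the viewpoint in a library. Setting the lowest nonzero value of each viewpoint and library to 1 event returned the counts, and 100% of values came out whole within 0.01 events. The value columns have no names, so no replicate number was assigned.

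Expected signal was the mean of all viewpoints by distance. Bins of 10 kb from 10 kb to 1 Mb from both viewpoints, with at least 10 expected events each, were tested in limma 3.58.1 (R 4.3.3) on within-library differences of log2(signal + 50) minus log2(expected + 50), with Benjamini-Hochberg adjustment over all bins and calls under 0.05. Fold changes are on that scale and understate changes of low values. Differences were taken within a library, which pairs the promoters by library. The fit drew on the 116 pairs of the same gene and 4151 pairs of neighbouring viewpoints of different genes within 200 kb, all with at least 1000 events for both fragments. Zone sums (pseudocount 0.5 events, at least 20 expected) were tested likewise. The zone test was added after the bins had been seen, and its weights and trend were revised after tests on simulated data. Other calculations used Python 3.11.15. Genes were named one by one by a rule covering the most called bins, extreme similarity, distance, flank ratio, side share and depth, genes with 3 or more fragments, and a list of erythroid genes, and other genes were named from called zones or gene groups after their values were seen. A gene that the rule covers is not reported here. Members and lists were chosen with earlier results of these data known.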

Additional observations from a re-analysis of the deposited data

How the results depend on the processing

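The count of 11 called bins in pairs of the same gene depended on the setting, and the cause was not tested. It was 0 with a pseudocount of 20, 0 without the filter on expected events, 0 in bins of 5 kb and 0 with a quasi-binomial test on worked-back events. Over all pairs these settings called 75, 0, 6 and 2 bins. It was 5 of 3334 with bins at least 25 kb away (289 of 163203 over all pairs) and 18 of 1736 with at least 20 expected events (1043 of 86002). With 3 libraries as 3 samples it was 31 of 3710 (1575 of 180867). Those libraries with each viewpoint scaled to its total in range gave 23 of 3731 (1370 of 184269). The counts over all pairs thus moved in the same direction. Without the replicate block, that is without pairing the promoters within a library, the count for the same gene was 1 of 3710 (278 of 180867). In that fit 41 zones were called in place of 49. Leaving out each library gave 1 to 9 bins (128 to 279 over all pairs) and 52 to 66 zones. Without L1, the fit took L2 and L3, elsewhere averaged into 1 sample, as 2 samples. With at least 5000 events, 15 zones were called, since fewer pairs were tested. The other zone counts were 56 to 65, no zone reversed, and 32 of the 49 zones were called in every alternative in which they were tested. The zone counts in this paragraph are without their share over all pairs, so they do not show a trait of these genes.

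Median similarity under 10 kb (0.599) was 0.568 by Spearman correlation, 0.573 with a pseudocount of 20 and 0.529 to 0.608 without each library. At 10 kb or more (0.379) it was 0.546 in bins of 20 kb, 0.643 with at least 5000 events and 0.293 to 0.409 without each library. The flank ratio from 2.5 to 10 kb was 0.787 with fragments 1 to 5 places away, 1.06 with pairs weighted equally, 0.549 with at least 5000 events and 0.671 to 0.691 without each library. At 10 kb or more (1.12) it was 1.41, 1.03 and 1.09 to 1.12 for the last 3 of these. The side difference under 10 kb (3.00 percentage points) was 4.69 over 10 to 100 kb, 2.37 with at least 5000 events and 2.66 to 3.29 without each library. At 10 kb or more (8.00) it was 10.04, 6.16 and 8.05 to 9.31. The median depth ratio (3.08 over libraries) was 3.11 without the chromosome 9 stretch and 3.08 to 3.10 without each library.

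The scaling to the total in range, the quasi-binomial test, the zones and all their alternatives were chosen after seeing the data. A planned count model was not run, because the deposited unit is a scaled signal, and the quasi-binomial test took its place. With 2 samples, few called bins do not show that profiles are alike, and the part of depth in their number was not tested.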
